A study of Bos taurus with 24 samples.

Results

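Cholesterol is made from squalene by a short series of enzymes of the endoplasmic reticulum, and 9 genes of this late part of sterol synthesis were followed through single early bovine blastocysts. They were taken by symbol, 9 of the 24621 genes in the table, and none was left out. The genes are FDFT1, SQLE, LSS, CYP51A1, NSDHL, HSD17B7, EBP, DHCR7 and C10H14ORF1, the bovine ortholog of ERG28. All 9 had counts in each culture condition. When all embryos were compared, CYP51A1 and HSD17B7 did not meet the count limit, and LSS did not meet it between serum-containing and serum-free medium.

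The 24 embryos were quality 1 early blastocysts of Holstein cattle, sired by the same bull and sequenced one by one. The 8 in vivo derived embryos (5 male, 3 female, A in the sample names) were flushed from 3 superovulated cows 7 days after insemination. Some therefore share a dam, and which cow gave which embryo is not in the labels. The other 16 came from slaughterhouse oocytes fertilized in vitro in 3 experiments and were collected between day 6 and 7 after insemination. Embryos produced in serum-containing medium (3 male, 5 female, B) were matured with 20% fetal bovine serum (FBS) and cultured in synthetic oviduct fluid with 5% FBS. Embryos produced in serum-free medium (5 male, 3 female, C) were matured with 20 ng/mL epidermal growth factor and cultured in synthetic oviduct fluid with 0.4% bovine serum albumin, with insulin and transferrin at 5 µg/mL each and selenium at 5 ng/mL. Serum, albumin and the other supplements changed together, so that their effects cannot be told apart.

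In the pathway, FDFT1 (squalene synthase) joins farnesyl diphosphate into squalene, the first step committed to sterols. SQLE oxidizes squalene and LSS closes the rings to give lanosterol. CYP51A1 then removes a methyl group from lanosterol, and NSDHL and HSD17B7, held together at the membrane by the ERG28 protein, work in the removal of further methyl groups. EBP shifts a double bond and DHCR7 reduces the last precursor of 1 branch to cholesterol. Transcription of these genes is known to be driven by SREBP2, a membrane-bound factor that is released when sterols in the endoplasmic reticulum are low, and to fall when cells take up cholesterol. NSDHL and EBP lie on the X chromosome.

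Levels are CPM, counts scaled to library size with the TMM method over all 24 embryos. Because gene lengths were not used, levels were compared between embryos and never between genes. The exon counts per embryo lay between 3253051 and 9000447. DDX3Y, a Y-linked gene, had at least 101 counts in every embryo labelled male and at most 2 in every embryo labelled female, and XIST, transcribed from the inactive X chromosome, had at most 243 and at least 297. Sex had been assigned by RT-PCR of DDX3Y on RNA of the same embryos, so that the DDX3Y counts are no independent check of the labels. The sum of 8 trophectoderm markers, of which KRT8 and KRT18 are keratins of the outer cell layer, ranged from 7535 to 14810 CPM in vivo, from 323 to 5203 CPM in serum-containing medium and from 5053 to 28240 CPM in serum-free medium, and the defining factor CDX2 stayed near 0 with a mean of 1.3 CPM or less in each condition. The sum of 5 inner cell mass markers ranged from 313.5 to 432 CPM in vivo. It went from 300 to 735 CPM in serum-containing medium and from 199 to 471 CPM in serum-free medium. Hypoblast markers summed to between 343 and 596 CPM in vivo, 27.7 and 236 CPM in serum-containing medium and 129 and 406 CPM in serum-free medium. Cumulus, blood and oviduct or uterine markers summed to at most 48.3, 12.4 and 18.7 CPM in any embryo, with PTX3 and FOXJ1 at 0 counts in all 24. Between single embryos, fewer cells of a type and less RNA per cell cannot be told apart. One library, B2, had a lower median correlation with the others (0.706) than the remaining 23 (0.807 to 0.917).

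The first gene of the series, FDFT1, had a higher median in both groups of embryos produced in vitro than in those derived in vivo. In vivo it ranged from 27.0 to 54.7 CPM with a median of 47.3 CPM. In serum-containing medium the lowest embryo had 86.3, the median was 102 and the highest was 163 CPM. In serum-free medium the values spread from 52.6 through a median of 133 to 526 CPM. All 8 embryos produced in serum-containing medium lay above the highest in vivo derived embryo, as did 7 of the 8 produced in serum-free medium.

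SQLE had its highest levels in serum-free medium. It ranged from 19.2 to 51.9 CPM in vivo with a median of 35.2, and from 18.9 to 57.0 CPM in serum-containing medium with a median of 38.5. Those groups covered almost the same range. In serum-free medium SQLE went from 36.7 through 63.6 to 271 CPM, and every embryo there was above the in vivo median.

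LSS was present at low counts. It ranged from 4.84 to 13.6 CPM in vivo (median 7.40), from 0.473 to 18.6 CPM in serum-containing medium (median 8.10) and from 2.66 to 47.7 CPM in serum-free medium (median 13.9). The lowest value, in B2, rested on 2 counts. In each medium 7 of the 8 embryos reached 15 counts.

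CYP51A1 was low outside serum-free medium. It ranged from 0.226 to 12.4 CPM in vivo (median 3.09) and from 0 to 13.1 CPM in serum-containing medium (median 5.35). In serum-free medium it ran from 1.34 through a median of 50.5 to 332 CPM. In counts, the serum-free embryos held between 7 and 1296 fragments. There 6 of 8 embryos exceeded every embryo of both other groups, while C1 and C6 did not. The embryo without a count was B5, in which 3 counts would have been 0.347 CPM. Such limits cover counting error only, as fragments carried no molecular identifiers.

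**Figure D1:**
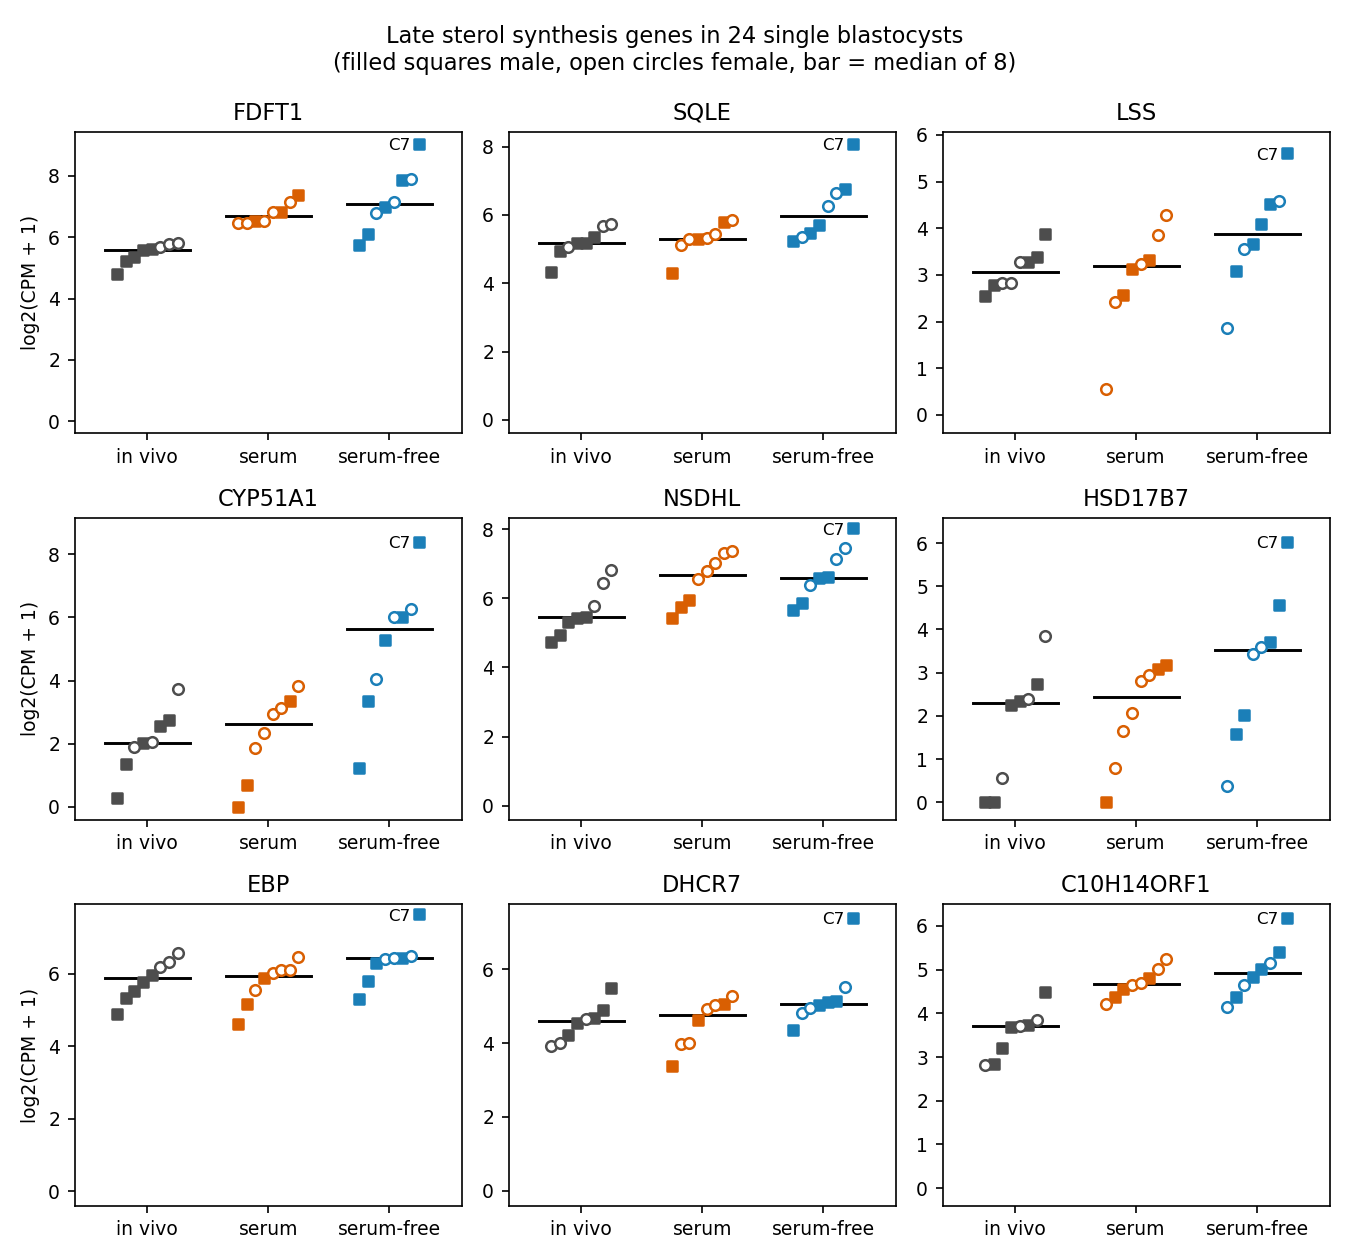
Levels of the 9 late sterol genes in each of 24 embryos, as log2(CPM + 1) on the vertical axis, by culture condition on the horizontal axis. Filled squares are male and open circles female embryos, bars are medians of 8, and the embryo C7 is marked; it is the highest point of every panel.

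Of the genes acting on the methyl groups, NSDHL had a higher median in both media than in vivo. It ranged from 25.9 to 112 CPM in vivo (median 42.6), from 42.4 to 165 CPM in serum-containing medium (median 101) and from 50.0 to 258 CPM in serum-free medium (median 95.9). Both media overlapped with the in vivo group, in which the females A6 and A9 had 85.6 and 112 CPM. HSD17B7 was low, between 0 and 13.3 CPM in vivo (median 3.92), 0 and 8.09 CPM in serum-containing medium (median 4.57) and 0.295 and 64.3 CPM in serum-free medium (median 10.5). Its counts were 0 in A1, A8 and B7, where 3 counts would have been 0.827, 0.726 and 0.926 CPM. C10H14ORF1 ranged from 6.06 to 21.5 CPM in vivo (median 12.0), from 17.7 to 37.1 CPM in serum-containing medium (median 24.5) and from 16.8 to 72.0 CPM in serum-free medium (median 29.5). In each medium 6 of the 8 embryos lay above the highest in vivo derived embryo, A4.

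At the end of the series, EBP and DHCR7 overlapped widely between the conditions. EBP had medians of 57.9 CPM in vivo, 61.1 CPM with serum and 85.2 CPM without it, within ranges of 28.5 to 93.8, 23.4 to 87.4 and 39.0 to 199 CPM. DHCR7 had medians of 23.3, 26.5 and 32.6 CPM in the same order, within ranges of 14.1 to 44.0, 9.37 to 37.9 and 19.5 to 167 CPM. For both genes the highest value was that of C7, and leaving it aside the serum-free embryos reached 88.5 CPM for EBP and 45.2 CPM for DHCR7.

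Fold changes were tested with edgeR's quasi-likelihood test over the genes that reached 15 counts in all embryos of either group compared, with Benjamini-Hochberg adjustment over all of them. A gene was called with an adjusted p under 0.05 and a change of at least 2-fold. Log2 fold changes are given with 95% intervals, positive when higher in the embryos produced in vitro or, between the media, in serum-free medium.

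Embryos produced in serum-containing medium had more FDFT1 and C10H14ORF1 transcript than in vivo derived embryos, 2 of 7 members tested, and a smaller rise in NSDHL. Genes called higher were 6.43% of the 7339 tested. FDFT1 rose by a log2 fold change of 1.30 (0.91 to 1.69, edgeR adjusted p = 0.000145), or 2.46-fold, without overlap of the groups, which 3.09% of the genes tested showed in that direction. C10H14ORF1 rose by 1.15 (0.57 to 1.73, edgeR adjusted p = 0.00536). NSDHL rose by 0.91 (0.22 to 1.61, edgeR adjusted p = 0.0468), under 2-fold, so that 3 of 7 passed the adjusted p where 14.8% of the genes tested did so in this direction. The NSDHL value passed in 5 of the 16 fits that each left out 1 embryo, and not without A1, A2, A3, A4, A7, A8, B2, B3, B4, B6 or B8, while FDFT1 and C10H14ORF1 were called in all 16.

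The remaining 4 members tested had estimates near 0 in serum-containing medium, with intervals that still allow changes. The log2 fold change was 0.12 for SQLE (-0.38 to 0.61), 0.07 for LSS (-0.85 to 0.98), -0.09 for EBP (-0.65 to 0.47) and 0.01 for DHCR7 (-0.63 to 0.65), with edgeR adjusted p-values from 0.735 to 0.979. The median over the 7 members was 0.12 and over all genes tested 0.01. The summed trophectoderm and hypoblast markers were lower in this group, as given above. The sums followed KRT8 (mean of 9068 CPM in vivo and 1103 CPM with serum), KRT18 (1843 and 294 CPM) and PDGFRA (439 and 108 CPM), while TFAP2C (207 and 259 CPM), TEAD4 (33.1 and 54.7 CPM) and GATA6 (19.2 and 21.7 CPM) did not have lower means. The part of these markers in the sterol gene values was not tested.

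In serum-free medium all 7 members tested had higher estimates than in vivo, and 4 were called. Of the 7314 genes tested, 1.61% were called higher. FDFT1 rose by a log2 fold change of 2.06 (1.33 to 2.80, edgeR adjusted p = 0.00197), or 4.18-fold. C10H14ORF1 rose by 1.55 (0.90 to 2.19, edgeR adjusted p = 0.00564). SQLE rose by 1.30 (0.57 to 2.02, edgeR adjusted p = 0.0324) and NSDHL by 1.15 (0.46 to 1.84, edgeR adjusted p = 0.0454).

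The other 3 did not pass in serum-free medium although their intervals lay above 0. LSS had a log2 fold change of 1.15 (0.31 to 2.00, edgeR adjusted p = 0.0985), DHCR7 one of 1.02 (0.24 to 1.80, edgeR adjusted p = 0.110) and EBP one of 0.59 (0.01 to 1.16, edgeR adjusted p = 0.219). The median over the 7 members was 1.15, against 0.00 over all genes tested.

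A single embryo carried a large part of these sizes. The male embryo C7 had the highest level of all 24 embryos for each of the 9 genes, and its trophectoderm marker sum of 28240 CPM was also the highest, with A2 next at 14810 CPM. Its depth of 4569863 counts lay within that of the other embryos. Its TMM scaling factor of 0.8621 was the lowest of the 24 (next 0.9433, in B2), which raises all of its CPM values. Without C7, the log2 fold changes of FDFT1 (1.64, edgeR adjusted p = 0.00104) and C10H14ORF1 (1.30, edgeR adjusted p = 0.00993) were still called, and those of SQLE (0.82, edgeR adjusted p = 0.0580), NSDHL (0.89, edgeR adjusted p = 0.0847), LSS (0.76), DHCR7 (0.41) and EBP (0.32) were not. With any 1 of the 16 embryos left out, FDFT1 and C10H14ORF1 were called in 16 fits, SQLE in 8 and NSDHL in 5. SQLE and NSDHL were lost together without A1, A2, A3, A4, A7, A8, C4 or C7, and NSDHL alone without C2, C3 or C8. The part of the trophectoderm level of C7 in its sterol gene levels was not tested.

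CYP51A1 and HSD17B7 could be fitted only without the count limit, over 19171 genes. CYP51A1, the lanosterol demethylase, was then higher in serum-free medium than in vivo by a log2 fold change of 4.14 (2.67 to 5.61, edgeR adjusted p = 0.00282), or 17.6-fold with an interval from 6.35 to 48.7. In that fit 0.6% of the genes were called higher. Without C7 the value was 3.17 (edgeR adjusted p = 0.00390), and it was called in all 16 fits that each left out 1 embryo. HSD17B7 had a log2 fold change of 1.95 (edgeR adjusted p = 0.210), and 1.12 without C7. In serum-containing medium CYP51A1 was not distinguishable from in vivo, at 0.38 (edgeR adjusted p = 0.770), and neither was HSD17B7, at 0.13. Without the limit NSDHL was no longer called in serum-free medium against in vivo (edgeR adjusted p = 0.0615) and no longer passed in serum-containing medium (edgeR adjusted p = 0.0651).

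**Figure D2:**
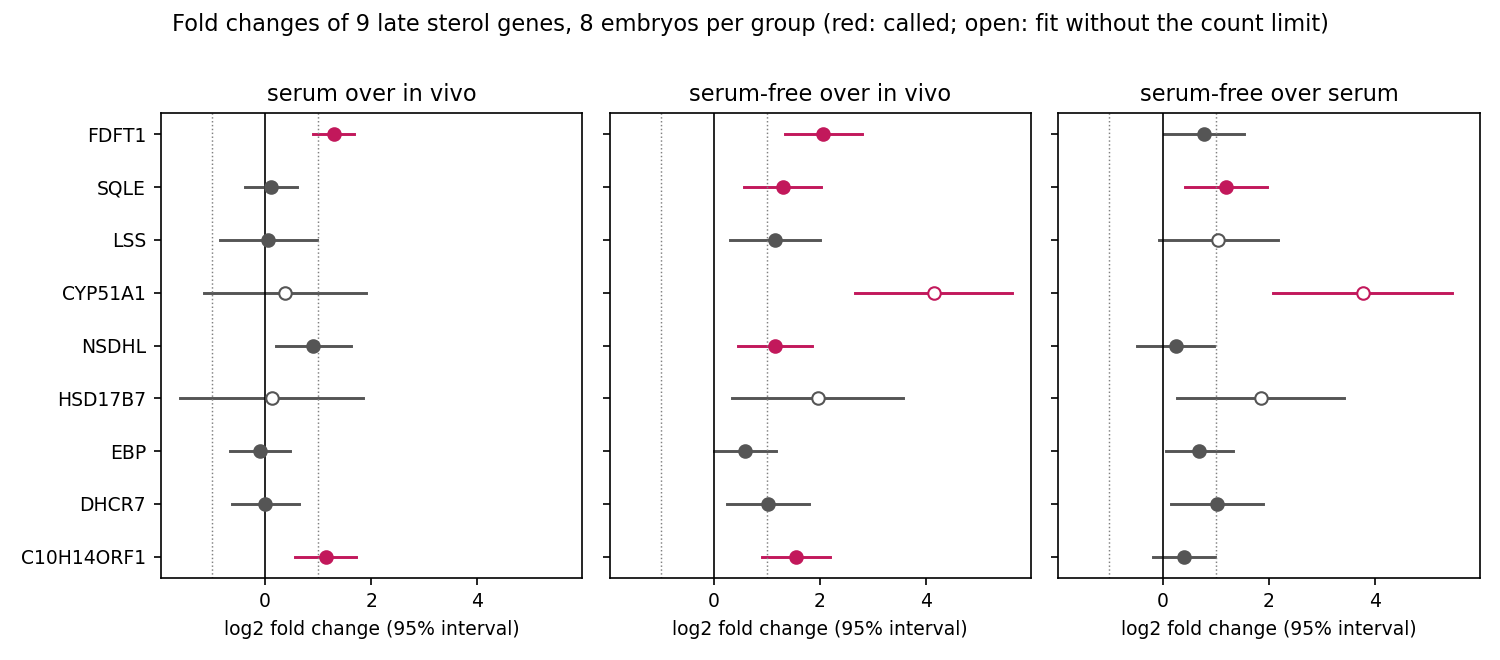
Log2 fold changes of the 9 genes in the 3 comparisons of 8 against 8 embryos, with 95% intervals as lines; red marks called genes, open points come from the fit without the count limit, and dotted lines stand at 2-fold. FDFT1 and C10H14ORF1 are red in both comparisons with in vivo, and CYP51A1 has the largest change in both comparisons of serum-free medium.

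Set against each other, the media differed in SQLE and, without the count limit, in CYP51A1. SQLE was higher in serum-free medium by a log2 fold change of 1.19 (0.41 to 1.97, edgeR adjusted p = 0.0358), 1 of 6 members tested, where 5.36% of 7181 genes were called higher. CYP51A1 was higher by 3.76 (2.09 to 5.44, edgeR adjusted p = 0.0116), where 1.72% of genes were called higher without the limit. In that fit SQLE was not called (edgeR adjusted p = 0.0586). FDFT1 (0.78, 0.02 to 1.53, edgeR adjusted p = 0.139), DHCR7 (1.02, 0.15 to 1.89, edgeR adjusted p = 0.0962) and EBP (0.69, 0.06 to 1.32, edgeR adjusted p = 0.120) did not pass. NSDHL (0.25, -0.48 to 0.97) and C10H14ORF1 (0.40, -0.18 to 0.99) were closest to 0 of the 6. These values were not adjusted for sex, and the serum-containing group held 3 males and the serum-free group 5. Mean NSDHL with and without serum was 51.8 and 111 CPM in males, C7 included, and 131 and 132 CPM in females. Over 11 other settings, which included sex as a covariate and each sex alone, NSDHL ranged from 0.002 to 1.13. EBP ranged from 0.36 to 1.27, and 0 of these settings called either gene. LSS had 1.05 (edgeR adjusted p = 0.269) and HSD17B7 1.84 (edgeR adjusted p = 0.163) without the limit.

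Without C7 the SQLE difference between the media was 0.68 (edgeR adjusted p = 0.119) and its call was lost. It was also lost without B2, B3, B5, B7, C3, C4 or C8. The CYP51A1 difference was 2.80 (edgeR adjusted p = 0.0454) without C7 and was called in all 16 fits. The value of NSDHL turned to -0.05 without C7. Each of these 3 comparisons shares 8 embryos with each of the others, so that they are not independent.

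The 9 genes had higher pairwise correlations among the serum-free embryos than elsewhere, given as a description without a test. The median correlation over the 36 pairs of members, on log2(CPM + 1), was 0.78 among the 8 serum-free embryos and 0.53 among the 7 left without C7. It was 0.04 among in vivo derived embryos and 0.18 in serum-containing medium. Points in these correlations share a library, and counts of LSS, CYP51A1 and HSD17B7 were low outside serum-free medium. As the mean z-score over the 9 genes, C7 stood at 2.58, followed by C4 (1.01), C3 (0.95), C8 (0.74) and C2 (0.64). C10 (-0.03), C1 (-0.21) and C6 (-0.33) lay within the range of the embryos produced in serum-containing medium, which spanned -0.75 to 0.22, and in vivo derived embryos spanned -0.95 to -0.06. Of the 5 high embryos, C3 and C8 were female and C2, C4 and C7 male.

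**Figure D3:**
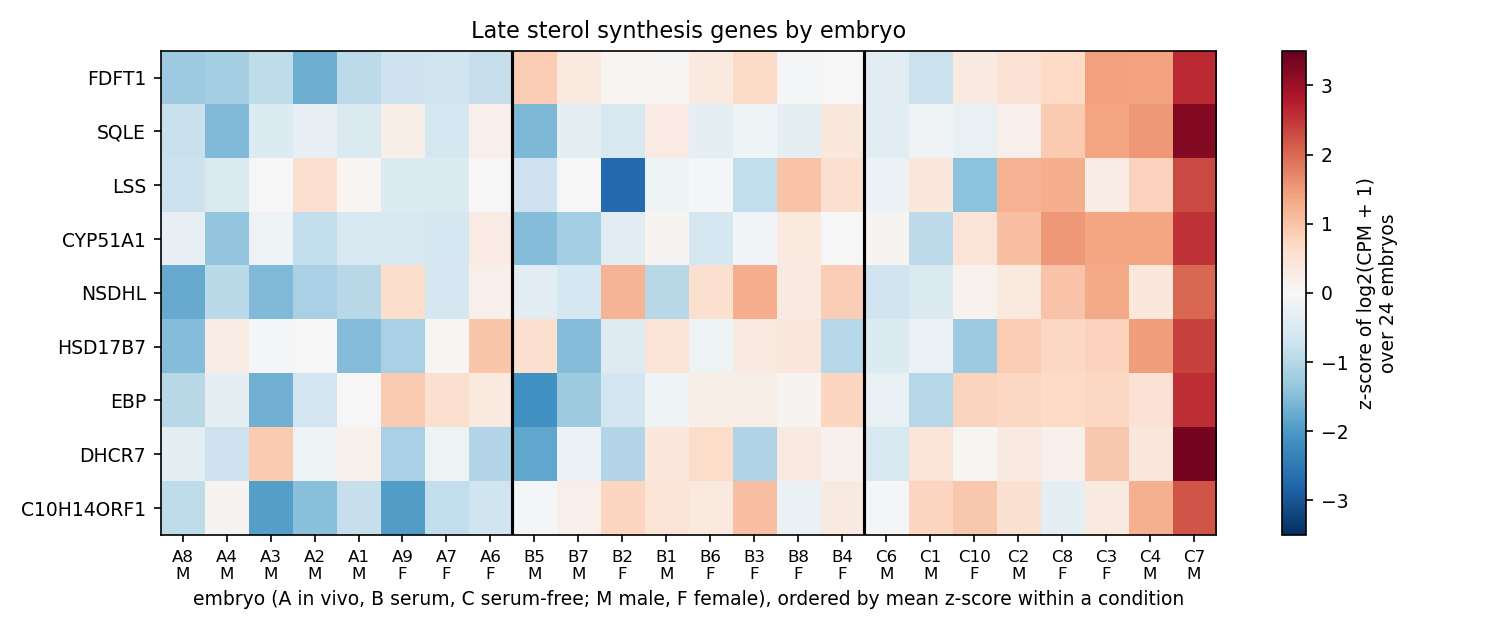
Heat map of the 9 genes (rows) in 24 embryos (columns, ordered by mean z-score within each condition), coloured by the z-score of log2(CPM + 1) over all embryos. C7 is red in every row, C4, C3, C8 and C2 follow, and C1, C6 and C10 resemble embryos of the other conditions.

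Sex was taken next, because the groups were not balanced for it and NSDHL and EBP are X-linked. In vivo, the 3 females had NSDHL levels of 53.4, 85.6 and 112 CPM, and the 5 males had 25.9, 29.7, 38.7, 42.2 and 43.0 CPM. The sexes did not overlap, which 5.25% of 7963 genes tested showed with males lower. NSDHL was lower in males by a log2 fold change of -1.22 (-1.77 to -0.67, edgeR adjusted p = 0.0317), the single member called of 7 tested, where 0.452% of genes were called lower in males. That call was lost in 5 of the 8 fits that each left out 1 embryo, without A2, A3, A6, A8 or A9. The values of SQLE (-0.50), LSS (0.29), DHCR7 (0.62) and C10H14ORF1 (0.19) did not pass, with edgeR adjusted p-values from 0.457 to 0.903, and CYP51A1 was below the count limit, as was HSD17B7 in every comparison by sex.

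In serum-containing medium the 5 females had NSDHL levels of 93.2, 109, 129, 159 and 165 CPM and the 3 males 42.4, 52.5 and 60.5 CPM. These did not overlap either, as for 3.29% of 7534 genes with males lower. The log2 fold change of -1.36 (-2.03 to -0.69) had an edgeR adjusted p of 0.186 and was not called, and 0 of 8 members were, with 1 at an unadjusted p under 0.05. Only 0.0265% of genes were called lower in males there, and edgeR's exact test and DESeq2 each called NSDHL. FDFT1 (0.21), SQLE (-0.20), LSS (-0.36), CYP51A1 (-1.12), DHCR7 (-0.25) and C10H14ORF1 (-0.25) did not pass there. In serum-free medium the females had 82.9, 140 and 173 CPM and the males 50.0, 56.8, 94.9, 97.0 and 258 CPM, with overlap. The log2 fold change was -0.25 (-1.26 to 0.75), and 0 of 8 members were called by edgeR, its exact test or DESeq2, or had an unadjusted p under 0.05, where 0.0253% of genes were called lower in males. FDFT1 (0.29), SQLE (0.49), LSS (0.78), CYP51A1 (0.76), DHCR7 (0.74) and C10H14ORF1 (0.61) had positive estimates that did not pass.

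EBP, the other X-linked member, was without a call in any condition. In vivo the females had 72.5, 80.0 and 93.8 CPM and the males 28.5, 39.4, 45.4, 53.8 and 62.0 CPM, without overlap (log2 fold change -0.84, -1.36 to -0.33, edgeR adjusted p = 0.122). In serum-containing medium the value was -0.80 (-1.65 to 0.04, edgeR adjusted p = 0.822) and in serum-free medium 0.08 (-0.84 to 0.99). FDFT1, which is not X-linked, was also without overlap in vivo at -0.42 (-0.92 to 0.07, edgeR adjusted p = 0.457). These stand beside the 5.25% of genes without overlap in vivo with males lower.

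**Figure D4:**
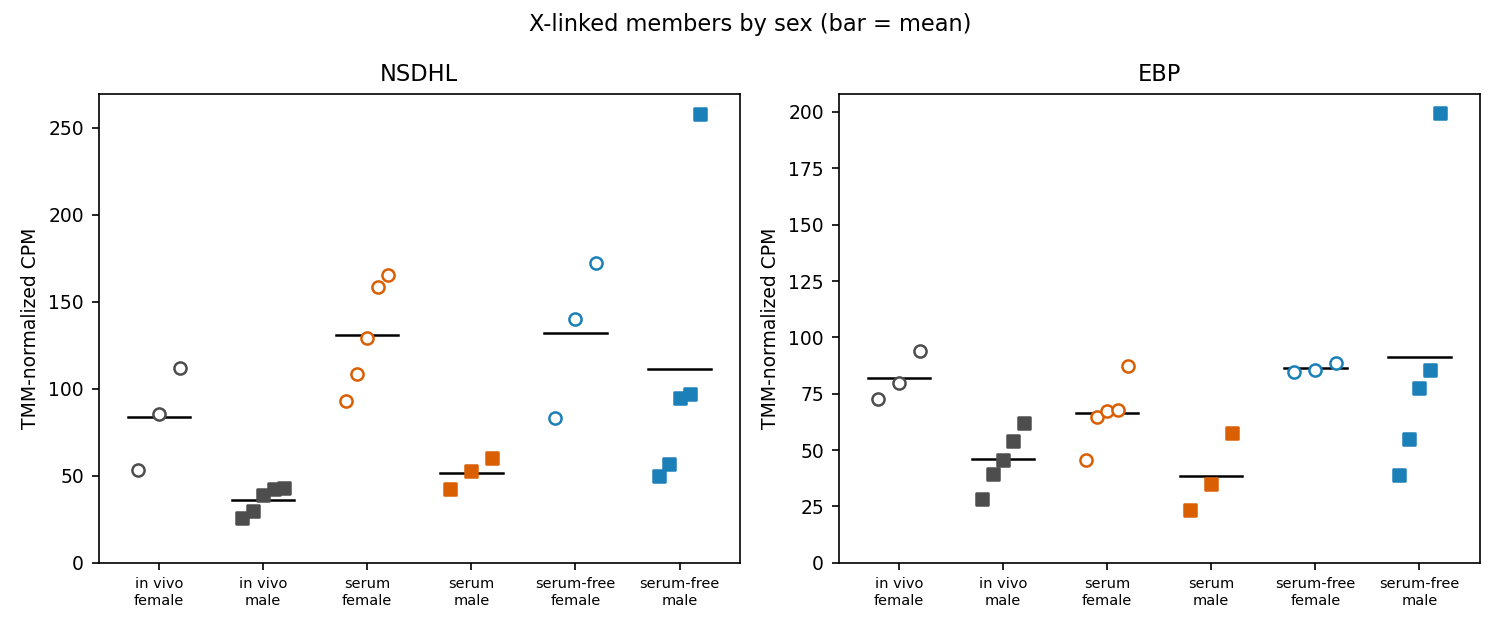
TMM-normalized CPM of NSDHL and EBP, the X-linked members, in female (open circles) and male (filled squares) embryos of each culture condition, with bars at the means. Females lie above males for both genes in vivo and for NSDHL in serum-containing medium, while the sexes overlap in serum-free medium.

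The serum-containing group held 5 females of 8 and the in vivo group 3, so the NSDHL difference between them was also taken with sex in the model. The log2 fold change was then 0.58 (edgeR adjusted p = 0.0306) in place of 0.91. Between males alone it was 0.51 (-0.10 to 1.12) and between females alone 0.67 (-0.01 to 1.36), neither passing. In serum-free medium, which had the sex ratio of the in vivo group, the NSDHL value with sex in the model was 1.27 (edgeR adjusted p = 0.0152).

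Within males, FDFT1 rose in serum-containing medium by a log2 fold change of 1.60 (1.03 to 2.18, edgeR adjusted p = 0.00278), 1 of 7 members, with 5.31% of 7762 genes called higher. The 3 males had 90.3, 111 and 163 CPM, against at most 48.0 CPM in the 5 in vivo males. Such a lack of overlap in this direction was found for 12.7% of the genes tested. The other 6 members did not pass, with values for SQLE of 0.20, LSS of -0.26, NSDHL of 0.51, EBP of -0.26, DHCR7 of -0.35 and C10H14ORF1 of 0.92, and CYP51A1 was below the count limit in males of both media. In serum-free males 3 of 7 members were called, with 0.653% of 7662 genes called higher. FDFT1 rose by 2.36 (1.28 to 3.43, edgeR adjusted p = 0.0355), C10H14ORF1 by 1.69 (0.84 to 2.55, edgeR adjusted p = 0.0464) and NSDHL by 1.65 (0.84 to 2.46, edgeR adjusted p = 0.0452). All 5 serum-free males exceeded all in vivo males in FDFT1 and NSDHL, as 2.64% of genes did. SQLE (1.69, edgeR adjusted p = 0.0837), LSS (1.31), EBP (1.01) and DHCR7 (1.07) did not pass. All 3 calls were lost without A1, A2, A3, A4, A8, C2 or C4, and that of C10H14ORF1 alone without C1, C6 or C7.

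Within females, 0 of 8 members were called in serum-containing medium with edgeR, with 2 at an unadjusted p under 0.05, where 0.184% of 8138 genes were called higher. These were FDFT1 (0.99, 0.43 to 1.54, edgeR adjusted p = 0.101) and C10H14ORF1 (1.38, 0.45 to 2.31, edgeR adjusted p = 0.127). Both were without overlap with the in vivo females, 2 of 8 members, beside 10.1% of genes in that direction. The exact test called 0 and DESeq2 1, C10H14ORF1. SQLE had -0.08, LSS 0.40, CYP51A1 0.20, NSDHL 0.67, EBP -0.28 and DHCR7 0.54. In serum-free females FDFT1 rose by 1.63 (1.01 to 2.25, edgeR adjusted p = 0.0477), 1 of 8 members, where 0.207% of 8211 genes were called higher, and the call was lost without any 1 of the 6 embryos. CYP51A1 met the count limit here only through the serum-free females, as 1 of 3 in vivo females reached 15 counts. It had 15.6, 63.1 and 76.1 CPM in serum-free medium and 2.70, 3.15 and 12.4 CPM in vivo. Its log2 fold change was 3.1 (1.55 to 4.65, edgeR adjusted p = 0.108), with no overlap of the groups. FDFT1, DHCR7 and C10H14ORF1 did not overlap either, which makes 4 of 8 members beside 10.9% of genes in that direction. SQLE (0.68), LSS (0.81), NSDHL (0.67), EBP (0.07), DHCR7 (0.94) and C10H14ORF1 (1.26) did not pass.

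Whether the change with culture differed between the sexes was tested in edgeR as an interaction term. No member passed in either medium, with 0 of 8446 and 0 of 8425 genes called (0% in both). At an unadjusted p under 0.05 there were 436 and 555 genes, 0 of the 8 members tested in each, and DESeq2 called 14 and 5 genes, 0 of them members. The intervals were wide. For NSDHL in serum-free medium the difference, male minus female change, was 0.98 (-0.26 to 2.22), and the other members there had 0.73 (FDFT1), 1.01 (SQLE), 0.50 (LSS), 1.75 (CYP51A1), 0.93 (EBP), 0.13 (DHCR7) and 0.43 (C10H14ORF1). In serum-containing medium FDFT1 had 0.66 (-0.09 to 1.41), and the other members had 0.32 (SQLE), -0.62 (LSS), -0.13 (CYP51A1), -0.11 (NSDHL), 0.06 (EBP), -0.85 (DHCR7) and -0.42 (C10H14ORF1).

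Further genes of the late pathway were examined in the same fits. SC4MOL, the oxidase that opens the removal of the methyl groups, rose in serum-containing medium by a log2 fold change of 1.10 (edgeR adjusted p = 0.00535) and in serum-free medium by 1.65 (edgeR adjusted p = 0.0353). LBR, a nuclear membrane protein with sterol reductase activity, rose in serum-containing medium by 0.59 (edgeR adjusted p = 0.0376) and had 0.25 (edgeR adjusted p = 0.348) in serum-free medium. SC5DL had 0.17 and 0.53, neither passing, and TM7SF2 was below the count limit. With higher levels than in vivo, 14.8% of all genes passed in serum-containing medium and 3.38% in serum-free medium. Between the media SC4MOL (0.57), SC5DL (0.36) and LBR (-0.33) did not pass. Without C7, SC4MOL in serum-free medium had 1.00 (edgeR adjusted p = 0.0793), and it also failed without A1, A2, A3, A4, A6, A7, A8 or C4. In serum-containing medium LBR failed without A2, A3, A4, B2, B3 or B7.

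Upstream of squalene, 9 genes of the mevalonate pathway were measured and 8 tested. Beside the 3.38% of all genes that passed as higher, 3 rose in serum-free medium over in vivo. They were HMGCS1 (2.88, edgeR adjusted p = 0.00623), which makes the precursor of mevalonate, IDI1 (1.99, edgeR adjusted p = 0.0277), an isomerase, and FDPS (1.17, edgeR adjusted p = 0.0162), which makes the substrate of FDFT1. In serum-containing medium 1 of 8 passed, GGPS1 (0.75, edgeR adjusted p = 0.0104), whose product leaves the sterol route. That is near the 14.8% of all genes that passed as higher. Between the media HMGCS1 (2.21), IDI1 (2.20) and FDPS (0.95) were higher and GGPS1 (-0.73) lower in serum-free medium, where 8.02% of genes passed as higher and 8.29% as lower. Without C7, 0 of these 4 passed between the media by edgeR, with values of 1.17, 1.21, 0.55 and -0.67. Against in vivo, HMGCS1 (1.88) and FDPS (0.81) passed without C7, and IDI1 failed without A2 or C7 (1.05). Between the media HMGCS1 also failed without B7, GGPS1 without B5, B7 or C8, and FDPS without B2, B3, B4, B5, B7, B8, C3, C4 or C8.

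The lists of sterol sensing, export and enzyme turnover were counted in the same way. Of 9 genes of sterol sensing and uptake tested, 1 fell in serum-containing medium, INSIG2 (-0.67, edgeR adjusted p = 0.0228), which retains the SREBP complex. This is no more than the 13.4% of all genes that passed as lower there. INSIG2 failed without A2, A7 or B7. In serum-free medium against in vivo 0 of 9 passed with edgeR (1 at an unadjusted p under 0.05, 0 with the exact test and 1 with DESeq2), and between the media 0 of 7 did (3, 2 and 3 by the same counts). Of 4 genes of esterification and efflux tested, the exporter ABCA1 (-1.77, edgeR adjusted p = 0.0131) and the sterol receptor NR1H2 (-0.68, edgeR adjusted p = 0.0174) fell in serum-containing medium, beside the same 13.4%. In serum-free medium 0 of these 4 passed with edgeR against in vivo (1, 1 and 1 by the same counts) or against serum-containing medium (1, 0 and 0). Of 7 genes that donate electrons to the sterol enzymes or turn them over, CYB5R3 (-1.79, edgeR adjusted p = 0.00131), a reductase, and MARCH6 (-0.97, edgeR adjusted p = 0.00333), a ubiquitin ligase known to act on SQLE, fell in serum-containing medium, also beside 13.4%. In serum-free medium 0 of 7 passed with edgeR against in vivo (1, 0 and 0 by the same counts). CYB5R3 and MARCH6 were higher in serum-free than in serum-containing medium, by 2.00 and 0.96, as was ERLIN2 by 0.81, which makes 3 of 6 tested beside 8.02% of all genes. MARCH6 failed there without B7 or C7.

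Among fatty acid genes linked to SREBP, FADS1 (2.47, edgeR adjusted p = 0.00474), a desaturase, and FASN (0.97, edgeR adjusted p = 0.0150), fatty acid synthase, rose in serum-free medium over in vivo, 2 of 6 tested beside 3.38% of all genes. ACLY, which supplies acetyl units, fell in serum-containing medium (-0.88, edgeR adjusted p = 0.0185), 1 of 5 tested, beside the 13.4% of all genes passing as lower. Between the media 4 of 5 were higher in serum-free medium, beside 8.02% of all genes, FADS1 (2.72), SCD (2.26), FASN (2.11) and ACLY (1.11). Without C7, FADS1 had 1.88 against in vivo and 2.09 between the media, and ACLY failed between the media.

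**Figure D5:**
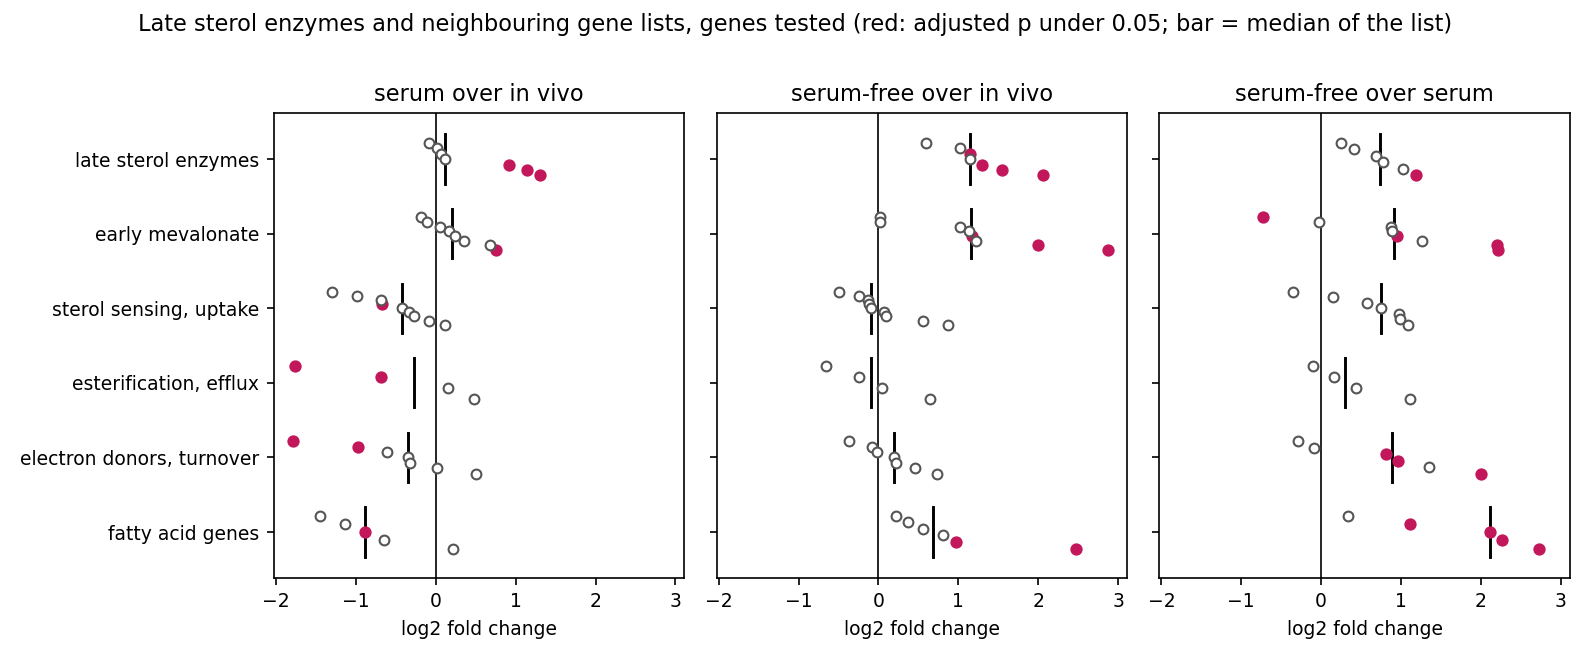
Log2 fold changes of the genes tested among the late sterol enzymes and 5 neighbouring lists, in the 3 comparisons of all embryos. Red points passed an adjusted p under 0.05 and bars are list medians; in serum-free over in vivo the medians are 1.15 for the late sterol enzymes, 1.16 for early mevalonate and -0.10 for sterol sensing and uptake.

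The genes most like the 9 members were found by Pearson correlation of log2(CPM + 1) with their mean z-score over 24 embryos, among 6614 other genes with a symbol and a mean of at least 10 CPM, whose median correlation was 0.0050. They were HMGCS1 (0.89), MANF (0.88), IDI1 (0.87), HSP90B1 (0.87), FDPS (0.84), MCFD2 (0.81), ERP70 (0.78) and MVD (0.78). HMGCS1, IDI1, FDPS and MVD belong to the mevalonate pathway. MANF, HSP90B1 and ERP70 encode proteins of the endoplasmic reticulum lumen, and MCFD2 a cargo receptor between that organelle and the Golgi. Each of the 8 had its highest level in C7, with HSP90B1 at 3171 CPM there and at 624 CPM in the next embryo, C4. Sequencing depth had a correlation of -0.10 with the mean z-score.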

How the data were processed

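Single early bovine blastocysts, 24 in all, were sequenced from SMARTer cDNA, a kit that does not mark strand. In CLC Genomics Workbench the authors mapped trimmed reads to the UMD 3.1 build with Ensembl annotation, and deposited raw counts of fragments mapped uniquely to exons, without normalization. All value columns matched a label, and 0 were of no sample. Reads shared between near-identical copies were thus not counted, and an antisense overlap cannot be told apart. Labels and methods name different HiSeq models.

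Counts were tested with edgeR 4.0.16 in R 4.3.3 (TMM, quasi-likelihood test, 2-group fits, Benjamini-Hochberg over all genes with at least 15 counts in every embryo of at least 1 group). Intervals are approximate, from the estimate and its F statistic. Values without the count limit needed only 1 count in any embryo. CPM were scaled over 8710 genes. The functions were tested on simulated data. The 9 genes, the other lists and the markers were chosen with earlier results of these data known. All 9 genes were named in every comparison, with those below the count limit given as such, and of the other lists at most the 4 genes with the largest change among those passing, with the other late sterol genes (1 of them is not reported here) and the 8 genes most like the members. Names and X linkage were checked in RefSeq (ARS-UCD2.0), where 8 symbols matched directly and C10H14ORF1 as a synonym of ERG28; sequences and coordinates were not used here. Alternatives were the exact test, DESeq2 1.42.0, its size factors, other count limits, 1 fit over all embryos, thinned counts, sex as covariate, a replicate block and leaving out each embryo. Lane, cow and experiment per embryo are not in the labels, so that no batch was modelled. The p-values rest on the spread between these embryos, which were tested as independent. Some share a cow or an experiment, so that p-values may be too small. Depth was 3253051 to 9000447 exon counts.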

Additional observations from a re-analysis of the deposited data

Results flagged for a closer look

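In serum-free medium the DHCR7 level of C7 stood apart from the other embryos of its group. It was 167 CPM, the next embryo had 45.2 CPM, and on the log2(CPM + 1) scale this gap was 0.614 of the range of the group, above Dixon's 95% critical value for 8 values. It was the single one of 27 groups (9 genes in 3 conditions) to pass, where chance alone would give about 1 in 20. Without C7 the log2 fold change of DHCR7 was 0.41 against in vivo and 0.37 against serum-containing medium, in place of 1.02 in both.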

How the results depend on the processing

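Of 88 recomputed counts of members called, other than by leaving out an embryo, 77 stayed within 1.5 times and 11 moved. Between in vivo derived and serum-free embryos the count went from 4 to 2 (FDFT1 and C10H14ORF1) with a replicate block. Same-numbered embryos had correlations between -0.137 and 0.0924 over 7 shared numbers in each comparison, and the main fits did not pair embryos by number. Such correlations cannot show whether a number marks a shared experiment, which the labels do not give. Without the count limit the count of 4 stayed, with CYP51A1 in place of NSDHL, and between the media that of 1 stayed, with CYP51A1 in place of SQLE. Between the media it went from 1 to 0 with the replicate block and with sex as a covariate. With DESeq2 it went from 0 to 1 in serum-containing females. In serum-free females it went from 1 to 2 with the exact test, DESeq2 or no count limit (FDFT1 and CYP51A1) and to 0 in 1 fit over all embryos. Between the sexes in vivo it went from 1 to 0 in 1 fit over all embryos, and in serum-containing medium from 0 to 1 with the exact test or DESeq2. The cause of these moves was not tested.

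Over all genes, 1011, 161 and 640 were called in the 3 comparisons of all embryos. With 15 counts in every embryo, and so fewer genes tested, the numbers were 544, 94 and 366, with the replicate block 699, 86 and 28, and in 1 fit over all embryos the second was 72. In serum-containing females 34 genes were called, against 475 with the exact test, 585 with DESeq2, 58 without the count limit and 482 in 1 fit. In serum-free males 74 were called, against 200 with the exact test, 201 with DESeq2 and 23 in 1 fit. In serum-free females 25 were called, against 194, 181, 232 and 0 in the order given for serum-containing females. Between the sexes 52 genes in vivo compared with 119, 116, 92 and 23 in that order. In serum-containing medium 13 compared with 65 (exact test), 97 (DESeq2), 75 (1 fit) and 0 (15 counts in every embryo), and in serum-free medium 11 compared with 53, 57, 17 and 0 in this order and 23 without the count limit.

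Leaving out 1 embryo gave 2 to 3 members called between in vivo and serum-containing medium, 2 to 5 between in vivo and serum-free medium and 0 to 2 between the media. It gave 0 to 3 in serum-free males, 0 to 0 in serum-free females and 0 to 1 between the sexes in vivo, and no change in the other comparisons (1 in serum-containing males, 0 in the rest). Direction reversed for these log2 fold changes. In serum-containing medium against in vivo these were SQLE (-0.079 in females alone), LSS (-0.095 with the replicate block, -0.26 in males alone, -0.21 to 0.28 with 1 embryo left out), EBP (0.18 with the replicate block, -0.21 to 0.058 with 1 left out) and DHCR7 (-0.031 with 15 counts in every embryo, -0.040 with thinned counts, -0.35 in males alone, -0.11 to 0.20 with 1 left out). Between the media these were NSDHL (-0.046 to 0.36 with 1 left out) and C10H14ORF1 (-0.11 in females alone). LSS, CYP51A1 and HSD17B7 had the lowest counts, down to 2, 0 and 0 in single embryos.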
